A study of Mus musculus with 18 samples.

Results

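The Gimap genes encode the GTPases of immunity-associated proteins, a family of small GTP-binding proteins made mainly in lymphocytes. The 8 genes described here are Gimap1, Gimap3, Gimap4, Gimap5, Gimap6, Gimap7, Gimap8 and Gimap9. They were taken by name, not by their values, though with earlier results of these data known. All 8 were found among the 55487 Ensembl gene IDs of the deposited tables and passed the filter on low values. They were measured as TPM, a gene's share of a library's transcripts after correction for transcript length, scaled to the same total in every library. The cells were regulatory T cells (Treg cells), the CD4-positive cells marked by the transcription factor Foxp3 that restrain other immune cells. They were freshly prepared from wild-type mice that had no treatment, from peripheral blood and 5 other sites (bone marrow, spleen, lymph node, liver and lung), and each site gave 3 poly(A) RNA libraries, 18 in all. Strain, age, sex, sorting gates and the number of animals per library are not given in the sources used here. The labels do not say that the 3 libraries of a site came from separate animals, so p-values measure the spread between these libraries, which may be technical.

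GIMAP proteins carry a GTP-binding domain of the AIG1 type, and several are anchored in the membranes of intracellular organelles. Loss of Gimap5 in rats and mice depletes peripheral T cells, loss of Gimap1 depletes mature lymphocytes, and Gimap6 has been tied to autophagy through the ubiquitin-like protein Gabarapl2. Gimap3 is a close relative of Gimap5, Gimap4 has been linked to the death of T cells, and Gimap8 carries several GTP-binding domains in 1 protein.

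In the GENCODE M21 annotation (GRCm38, the build called mm10) the 8 genes lie together at chr6:48647234-48770851, a span of 123.6 kb, in the order Gimap8, Gimap9, Gimap4, Gimap6, Gimap7, Gimap1, Gimap5 and Gimap3. Gimap6 and Gimap3 lie on the minus strand and the other 6 on the plus strand. The 250 bases before the RefSeq start (GRCm38.p6) are shown for Gimap6 and Gimap7, whose levels differed most between sites, for Gimap4, whose share of the family was highest in blood, and for Gimap1. Capitals mark matches to the motifs searched on both strands.
Gimap6 (chr6:48708245-48708494, minus strand): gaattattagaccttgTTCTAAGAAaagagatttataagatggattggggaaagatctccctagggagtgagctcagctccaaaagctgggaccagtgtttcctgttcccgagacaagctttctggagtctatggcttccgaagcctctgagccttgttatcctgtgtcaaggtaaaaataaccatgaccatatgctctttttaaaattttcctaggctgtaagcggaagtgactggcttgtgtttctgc
Gimap7 (chr6:48718371-48718620, plus strand): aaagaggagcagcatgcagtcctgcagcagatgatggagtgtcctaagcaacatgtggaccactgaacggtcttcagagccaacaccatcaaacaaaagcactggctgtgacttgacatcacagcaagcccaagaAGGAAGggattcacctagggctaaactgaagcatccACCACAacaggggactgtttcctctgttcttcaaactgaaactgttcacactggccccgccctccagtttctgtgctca
Gimap4 (chr6:48684328-48684577, plus strand): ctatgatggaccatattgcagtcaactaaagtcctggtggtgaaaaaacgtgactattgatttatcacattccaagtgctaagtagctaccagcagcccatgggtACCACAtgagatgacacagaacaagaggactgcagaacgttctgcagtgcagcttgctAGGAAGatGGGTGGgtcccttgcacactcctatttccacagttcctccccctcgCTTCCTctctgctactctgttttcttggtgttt
Gimap1 (chr6:48738797-48739046, plus strand): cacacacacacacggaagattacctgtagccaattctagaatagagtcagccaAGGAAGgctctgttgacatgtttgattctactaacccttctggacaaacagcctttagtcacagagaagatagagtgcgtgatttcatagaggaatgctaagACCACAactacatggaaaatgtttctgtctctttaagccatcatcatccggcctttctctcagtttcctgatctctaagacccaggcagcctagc

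The letters AGGAAG, searched as an ETS form, stood in the 250-base windows of 7 of the 8 genes, all but Gimap6. They stood in 29.48% of all 32851 mouse promoters of the same length, a share counted per window. The 8 genes gave 9 windows, because Gimap8 had more than 1. All Gimap8 matches lay in that at chr6:48647111-48647360, and its other window held none. The Gimap6 window holds CGGAAG, which was not among the letters searched. The RUNX letters TGTGGT stood in the windows of Gimap1, Gimap4 and Gimap7 and in 14.05% of all promoters. The STAT5 letters TTCNNNGAA stood in the windows of Gimap6 and Gimap8 (7.02% of all promoters), where the Gimap8 match overlaps its AGGAAG match. The KLF letters CCACCC stood in those of Gimap3, Gimap4, Gimap5, Gimap8 and Gimap9 (28.08%), and the FOXO letters GTAAACA in that of Gimap3 (3.17%). The letters CCGGAAG (ETS, 6.91% of all promoters) and CTTTGA (TCF/LEF, 13.83%) were not found in these windows. These are letter matches and do not show binding.

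Gimap3 and Gimap5 were 87.85% identical over their aligned coding sequences, and the next closest pair, Gimap7 and Gimap9, 65.07%. The longest run of identical coding bases, 140 bases from position 175 of the Gimap3 and position 187 of the Gimap5 coding sequence, is shown because a read that lies inside it cannot be given to 1 of the 2 genes.
Gimap3 and Gimap5: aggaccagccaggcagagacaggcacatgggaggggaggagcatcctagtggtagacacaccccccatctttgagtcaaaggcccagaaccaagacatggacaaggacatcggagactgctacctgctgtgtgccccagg

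Of all 50-base words in the annotated transcripts, 7.52% of those of Gimap3 and 4.53% of those of Gimap5 occur in the other gene, so the division of TPM between this pair is less certain than for the other members. A readthrough gene, Gm28053, joins exons of Gimap7, Gimap1 and Gimap5 and held 3.01 to 38.5 TPM per library. The antisense transcript Gimap1os shares 32.45% of the 50-base words of Gimap1 on the opposite strand and held 26.2 to 45.2 TPM per library. The kit keeps strand, and whether counting used it is not given in the sources used here. Of the 5 annotated coding genes on each side, 9 were matched in the tables, and their highest group mean was 71.2 TPM, for Tmem176b in blood. That was close to the lowest group mean of a member, 79.1 TPM for Gimap5 in blood, while the other 7 members held group means of at least 111 TPM, as the plot of levels along the cluster shows.

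**Figure D1:**
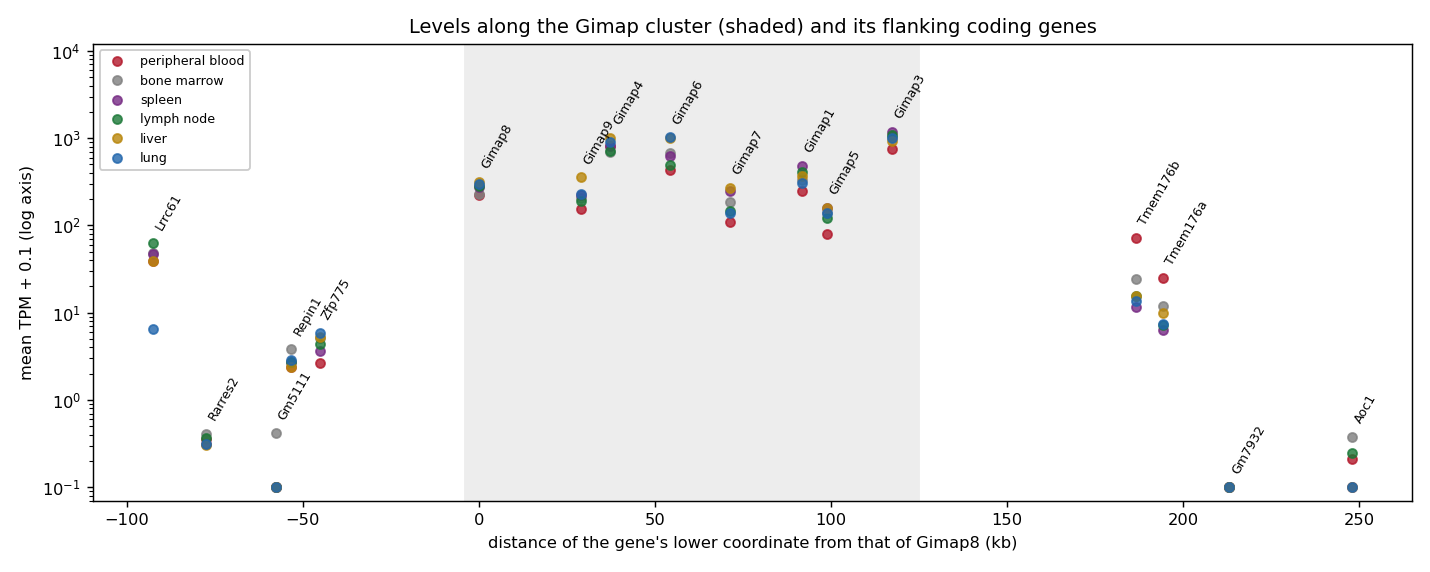
Mean TPM plus 0.1 on a log axis (3 libraries per site) against the distance in kb of each gene's lower coordinate from that of Gimap8, one colour per site, with the Gimap cluster shaded. The 8 Gimap genes sit between 79.1 and 1186 TPM, and the matched coding genes on either side at or below 71.2 TPM.

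The libraries expressed what their label calls for, with other cells' transcripts beside it. Foxp3 held 85.4 to 240.3 TPM in the 18 libraries and was lowest in blood, at 85.4, 88.4 and 92.2 TPM. The 6 listed Treg genes were Foxp3, Il2ra, Ctla4, Ikzf2, Tnfrsf18 and Cd4. Their summed TPM was 625 to 629 in blood and 1154 to 2834 at the other sites. All 6 were lower in blood than in spleen and lymph node, and 5 than in liver, lung and bone marrow (15.3% to 21% of all genes). Against lung and bone marrow 1 was higher in blood (26.4% and 13%). The summed TPM of 20 general T cell genes was 3399 to 3488 in blood and 5174 to 8010 at the other 5 sites. The summed TPM of 8 myeloid markers was 24927 to 25795 in blood and 36767 to 36943 in bone marrow, and 34.2 to 1584 elsewhere. All 8 myeloid markers had means of at least 1 TPM at every site but lymph node, where 4 did. The 6 platelet markers summed to 2123 to 2170 TPM in blood and at most 80.8 elsewhere. Erythroid markers summed to 10931 to 11969 TPM in liver and 6314 to 6502 TPM in bone marrow. Of 7 endothelial markers, all 7 had means of at least 1 TPM in liver, 3 in lung and 1 or 2 at the other sites. The 6 lung epithelial markers summed to 222.5 to 297.8 TPM in lung and at most 14.2 TPM elsewhere. The 6 hepatocyte markers summed to at most 19.7 TPM in any library. The 6 B cell markers summed to 580.6 to 599.3 TPM in blood, 480.4 to 539.9 in spleen, 467.05 to 502.3 in bone marrow and 57.1 to 154.03 elsewhere, and all 6 were above 1 TPM at every site. The 8 cytotoxic and NK markers, which mark other lymphocytes, summed to 543.8 to 596.04 TPM in blood, led by the granzyme gene Gzma at 329 TPM, and to at most 93.3 TPM elsewhere. Because TPM is a share of the library, comparisons are also given after each library was multiplied by a factor that equalised the geometric mean of the 20 T cell genes (0.729 to 0.743 in lymph node, 1.59 to 1.63 in blood). These 20 genes mark T cells in general, so this scale need not give levels per Treg cell. After it, 5 of the 6 Treg genes were lower in blood than in lymph node and 0 higher (1.93% and 56.8% of all genes). Against lung and bone marrow 5 were lower and 1 higher each (7.43% and 51.7%, 7.82% and 31.4%). Against liver 4 were lower and 2 higher (4.74% and 61.1%), and against spleen 3 and 3 (2.76% and 54.3%). In bulk samples, fewer Treg cells and less RNA per cell cannot be told apart. The part of other cells' RNA in the results below was not tested.

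Together the 8 genes made up 0.281% ± 0.003 (SD, n = 3) of the RNA in blood and 0.438% ± 0.009 in liver, the lowest and highest of the 6 sites. Their summed TPM was 2781 to 2839 in the blood libraries, below every other library, and 4285 to 4463 in the liver libraries, above every other library. Relative to the summed T cell genes the order was different. The family's sum was 81.7% ± 1.91 (SD, n = 3) of the T cell gene sum in blood, the highest of the 6 sites, and 43.3% ± 0.299 in lymph node, the lowest. No library of blood overlapped those of another site on either measure.

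**Figure D2:**
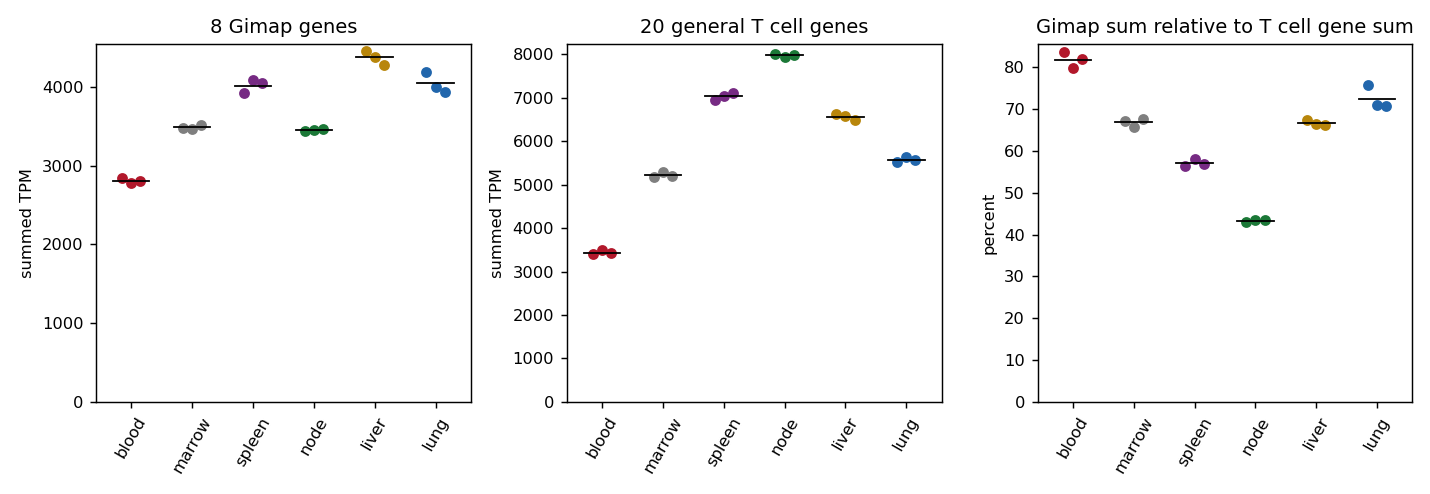
Summed TPM of the 8 Gimap genes (left), of 20 general T cell genes (middle) and the first as a percent of the second (right), by site, with a point per library and a bar at the mean of 3. Blood is lowest in the left panel, at 2781 to 2839, and highest in the right panel, at 79.7 to 83.5%.

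All 8 members differed among the 6 sites by limma's F test, with adjusted p between 4.07e-10 and 6.31e-05, where 68% of the 16694 genes tested did so. After T cell gene scaling all 8 differed again, with adjusted p of at most 0.000162, where 77.6% of all genes did so. The ratio of the highest to the lowest group mean ran from 1.41 for Gimap8 to 2.43 for Gimap7. The members' levels across sites are therefore given gene by gene, with differences on the log2(TPM + 1) scale, their standard errors and p-values adjusted over all genes tested.

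Gimap6, the member tied to autophagy, was highest in lung and liver. It held 1114, 939 and 1013 TPM in lung and 1116, 962 and 906 TPM in liver. It held 698, 662 and 681 TPM in bone marrow, 642, 629 and 620 in spleen, 493, 487 and 480 in lymph node and 416, 425 and 442 in blood. In TPM the lung and liver libraries all lay above those of the other 4 sites, and lung did not differ from liver beyond its spread (liver minus lung -0.04, SE 0.07, adjusted p = 0.698). After T cell gene scaling liver minus lung was -0.31, which passed the test (adjusted p = 0.00466). Lung exceeded lymph node by 1.07 (SE 0.07, adjusted p = 3.21e-09), and by 1.54 after T cell gene scaling (adjusted p = 1.58e-10). Blood fell below lung by 1.25 (SE 0.07, adjusted p = 3.99e-10) and by 0.60 after T cell gene scaling (adjusted p = 6.38e-06). Blood was lowest in TPM, but after T cell gene scaling it exceeded lymph node by 0.94 (adjusted p = 2.84e-08) and spleen by 0.34 (adjusted p = 0.00132). Liver exceeded bone marrow by 0.54 (SE 0.07, adjusted p = 1.19e-05) in TPM but by 0.13 after T cell gene scaling, which did not pass the test (adjusted p = 0.19).

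Gimap7 was high in liver and spleen and low in lung, lymph node and blood in TPM, an order that changed in part after T cell gene scaling. Its values were 265, 289 and 250.5 TPM in liver and 256, 242 and 243 TPM in spleen, which did not differ beyond their spread (adjusted p = 0.208). Bone marrow followed at 183, 180 and 188 TPM. Lymph node had 149, 136 and 150.3 TPM, lung 137, 146 and 129 TPM, and blood 108, 118 and 106 TPM. The liver and spleen libraries stood above all others, and lymph node and lung overlapped. Spleen exceeded lymph node by 0.76 (SE 0.07, adjusted p = 1.87e-06), and by 0.99 after T cell gene scaling. Liver exceeded lung by 0.96 (SE 0.07, adjusted p = 2.43e-08), and by 0.69 after T cell gene scaling. On that scale blood was no longer lowest: it exceeded lung by 0.34 (adjusted p = 0.000208) and lymph node by 0.73 (adjusted p = 5.31e-08). The differences from bone marrow did not pass the test there, at 0.13 for liver (adjusted p = 0.108) and 0.04 for spleen (adjusted p = 0.673). Gimap6 and Gimap7, whose proteins have been reported to bind each other, thus differed in lung: the ratio of Gimap7 to Gimap6 was 0.135 ± 0.018 (SD, n = 3) there and 0.259 to 0.392 at the other sites.

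Gimap9 stood out in liver. Its liver libraries held 368, 340 and 359 TPM, above every other library, against 225, 219 and 238 TPM in lung, 202, 241 and 230 in spleen, 213, 207 and 199.5 in bone marrow, 190, 196 and 188 in lymph node and 158, 143 and 163 in blood. Liver exceeded lung, the next site, by 0.64 (SE 0.07, adjusted p = 2.6e-06), and by 0.37 after T cell gene scaling (adjusted p = 0.00097). Lung and spleen, and spleen and bone marrow, did not pass the test in TPM, but spleen was lower than both after scaling (-0.27 each, adjusted p = 0.00961 and 0.00774). Blood, lowest in TPM, exceeded lymph node by 0.82 (adjusted p = 9.75e-08) and spleen by 0.36 (adjusted p = 0.000547) after scaling. The ratio of Gimap9 to Gimap3 was 0.386 ± 0.016 (SD, n = 3) in liver and 0.176 to 0.228 elsewhere.

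Gimap1 and Gimap3, the 2 members highest in spleen, had lymph node second and blood last in TPM, an order that turned in part after T cell gene scaling. Gimap1 held 445, 487 and 500.01 TPM in spleen, 402, 419 and 417 in lymph node, 340, 377 and 378 in liver, 312, 338 and 337 in bone marrow, 283, 317 and 328 in lung and 252, 262 and 239 in blood. Its spleen level exceeded that of lung by 0.62 (SE 0.06, adjusted p = 1.22e-06), and by 0.38 after T cell gene scaling. Gimap3 held 1159, 1216 and 1184 TPM in spleen, 1081, 1087 and 1099 in lymph node, 1006, 1061 and 1040.0 in bone marrow, 1009, 975 and 1008 in lung, 914, 916 and 935 in liver and 753, 760.5 and 766 in blood. Its spleen level exceeded that of liver by 0.36 (SE 0.03, adjusted p = 1.45e-07), and by 0.39 after T cell gene scaling. After that scaling Gimap3 was lower in spleen than in blood (blood minus spleen 0.26, adjusted p = 4.85e-06) and bone marrow (spleen minus bone marrow -0.19, adjusted p = 0.000188). Gimap1 then had its lowest mean in lymph node (minus bone marrow -0.29, adjusted p = 0.000748), and blood minus spleen was -0.03 (adjusted p = 0.735). In TPM, spleen and lymph node did not overlap for either gene. Gimap1's difference (0.21, SE 0.06, adjusted p = 0.0429) lost its call in some fits without 1 library, with adjusted p of 0.055 to 0.158. Those were the fits without spleen library 2 or 3, any 1 lymph node library, bone marrow library 2 or 3, or blood library 1. Gimap3's difference (0.12, SE 0.03, adjusted p = 0.00901) lost its call in an alternative fit, where adjusted p reached 0.307.

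Gimap4 did not follow the other members in blood. It held 842, 768 and 798 TPM in blood, 951, 1045 and 1002 in liver, 985, 971 and 776 in lung, 787, 850.1 and 833 in spleen, 706, 724 and 727 in lymph node and 712, 665 and 688 in bone marrow. Blood overlapped spleen and lung, lay below liver and lay above lymph node and bone marrow. No neighbouring pair of sites in its order passed the test, and the third lung library lay apart from the other 2. Blood exceeded bone marrow by 0.22 (SE 0.07, adjusted p = 0.0269). That call was lost without bone marrow library 2 or 3 or blood library 1 or 3, where the adjusted p ranged from 0.0621 to 0.11. After T cell gene scaling Gimap4 was higher in blood than at all 5 other sites, by 0.48 to 1.29. So was Gimap8 on that scale, by 0.23 to 0.78.

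Gimap5 was the member with the lowest levels, and its blood libraries stood apart in TPM. It held 71.0 to 85.5 TPM in blood and 122.05 to 176 TPM in the other 15 libraries, and no neighbouring pair of sites passed the test except lymph node against blood (0.63, SE 0.11, adjusted p = 0.000163). After T cell gene scaling that difference turned, with blood higher by 0.49 (adjusted p = 0.00111). Gimap8 held 223 to 225 TPM in blood and 227 to 228 TPM in bone marrow, a pair that did not pass the test in TPM, and 270 to 332 TPM at the other sites. Blood was higher than bone marrow by 0.49 (adjusted p = 1.36e-06) after T cell gene scaling and by 0.17 (adjusted p = 0.00728) after median-ratio scaling.

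**Figure D3:**
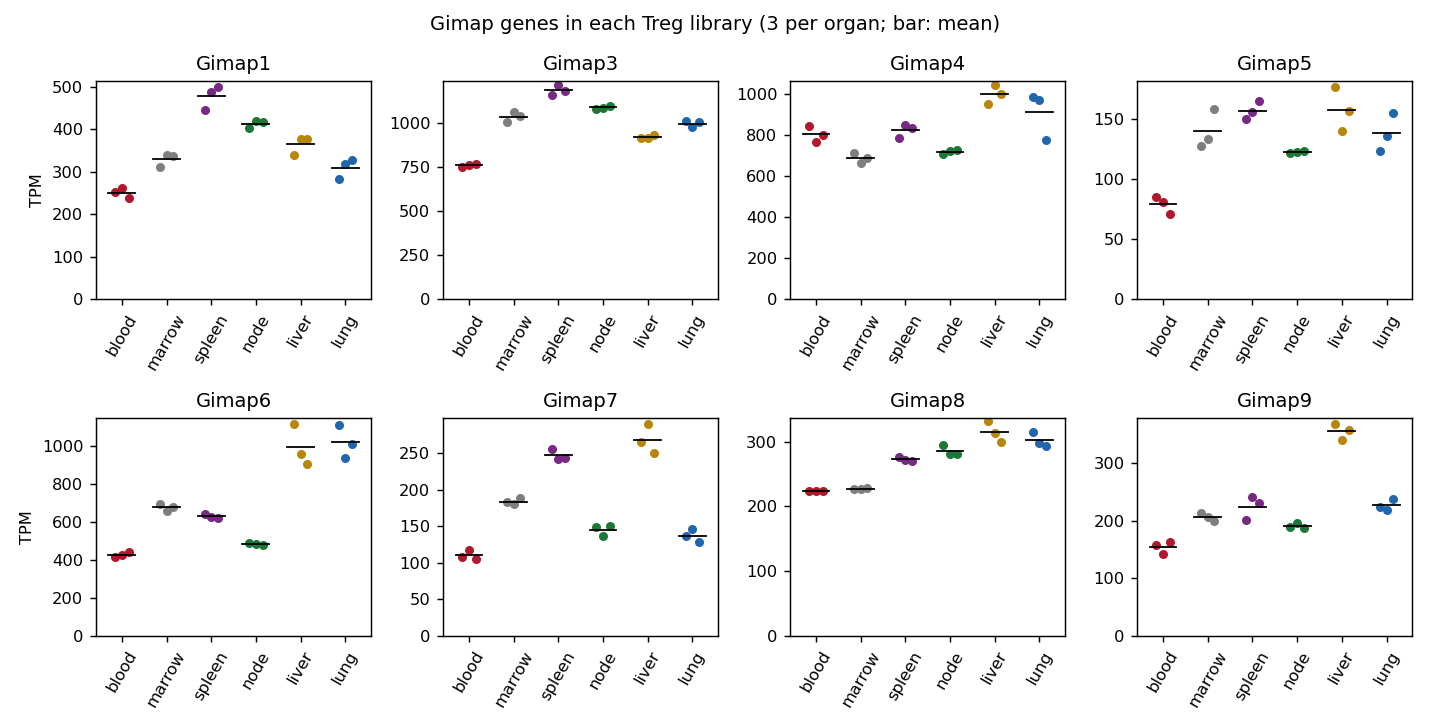
TPM of each of the 8 Gimap genes (vertical axes from 0) by site, with a point per library and a bar at the mean of 3. Gimap6 lies at 906 to 1116 TPM in liver and lung, Gimap9 at 340 to 368 TPM in liver and at 241 TPM or less elsewhere, and Gimap4 in blood lies within the range of the other sites.

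Against each site in turn, blood TPM was lower for most members. Of 8 members, 7 were lower and 0 higher than in spleen, where 15.3% of all genes tested were lower and 20.1% higher. Against lymph node 7 were lower and 0 higher (background 21% and 16.4%), against liver 8 and 0 (16.1% and 23.3%), against lung 7 and 0 (17.3% and 26.4%), and against bone marrow 6 and 1 (18.8% and 13%). Gimap4 was the member not lower in the comparisons with spleen, lymph node and lung. The members' median differences were -0.60, -0.37, -0.76, -0.41 and -0.43 in that order, beside medians of 0, -0.15, 0.07, 0.12 and -0.11 over all genes. Of the 20 general T cell genes, 17, 20, 20, 15 and 16 were lower in blood in the same order of sites, and 0, 0, 0, 4 and 1 higher. These 5 comparisons share the blood libraries.

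Scaling to T cell genes changed the differences of all genes by a median of 0.48 to 1.03 per comparison. It turned most of the members' differences. Against spleen 5 members were then higher and 1 lower, where 54.3% of all genes were higher and 2.76% lower. Against lymph node 8 were higher and 0 lower (56.8% and 1.93%), against liver 4 and 3 (61.1% and 4.74%), against lung 5 and 1 (51.7% and 7.43%), and against bone marrow 2 and 2 (31.4% and 7.82%). The members' medians were 0.30, 0.76, 0.16, 0.24 and 0.08, and those of all genes 0.71, 0.74, 0.84, 0.65 and 0.29. Relative to all genes, the members' medians were thus lower against 4 of the 5 sites on this scale and near the median of all genes against lymph node. Members lower in blood on both scales were Gimap7 against spleen, Gimap6, Gimap7 and Gimap9 against liver, Gimap6 against lung, and Gimap5 and Gimap7 against bone marrow. For Gimap7 the difference from liver was -1.27 in TPM and -0.35 after T cell gene scaling (adjusted p = 0.000152).

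**Figure D4:**
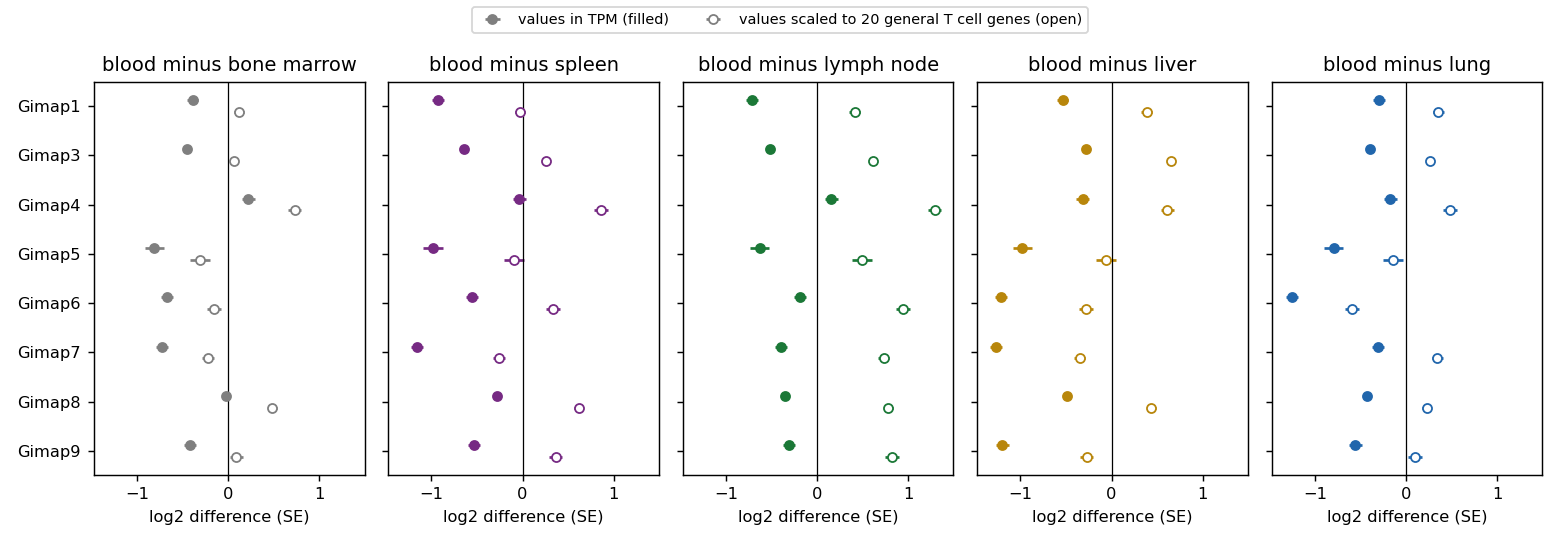
Log2 difference between blood and each of 5 other sites for the 8 Gimap genes, with bars of 1 SE, in TPM (filled) and after scaling to 20 general T cell genes (open). In TPM all members but Gimap4 lie below 0 in each panel, and after scaling all 8 lie above 0 against lymph node.

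The 10 pairs of the other 5 sites gave 53 calls among 80 member-and-pair tests, where 31.9% of such tests were called over all genes, and 57 after T cell gene scaling (36.6%). Over all 15 pairs, 89 of 120 (74.2%) were called in TPM, against 33.8% for all genes. The shares over all genes include genes with means from 1 TPM, while the lowest member value was 71.0 TPM. They were not matched for level. Of the 120, 44 (36.7%) were called in the same direction in TPM and after T cell gene scaling, against 25.1% for all genes, a criterion chosen after the values were seen. Another 23 (19.2%) were called in opposite directions on the 2 scales, against 1.68% for all genes. Relative to the calls in TPM, 44 of the members' 89 held on both scales, a smaller part than the 62851 of 84648 over all genes. Of the 44, 32 kept their direction and call in all 27 alternative fits. Gimap6 and Gimap7 gave 9 of these each, Gimap9 6, Gimap4 3, Gimap1 2, and Gimap3, Gimap5 and Gimap8 1 each. Spleen exceeded lymph node for 6 members in TPM (4.44% of all genes were higher) and for 7 after T cell gene scaling (6.91%), with 0 lower on either scale (9.87% and 2.47% of all genes were lower). The count of 6 fell to 3 without spleen library 2 or 3 or any 1 lymph node library, because Gimap1, Gimap5 and Gimap9 then missed the threshold. Over all alternative fits the lowest count was 2, and the Gimap3 call was also lost, with adjusted p up to 0.307. Liver exceeded lymph node for Gimap4, Gimap5, Gimap6, Gimap7, Gimap8 and Gimap9 on both scales, where 9.45% of all genes were so in TPM and 12.8% after scaling. Gimap1 (adjusted p = 0.0475) and Gimap3 (adjusted p = 1.46e-05) were higher in lymph node than in liver in TPM, where 21.6% of all genes were so, and 0 members were after scaling (11.7%). The Gimap1 call was lost when 1 of 12 libraries was left out (spleen 2, liver 1, lung 2, or any of lymph node, bone marrow or blood), with adjusted p of 0.0501 to 0.158. Without lymph node library 2 or liver library 1 the TPM count was 4, since Gimap5 and Gimap8 missed the threshold. Liver exceeded lung for Gimap1, Gimap7 and Gimap9 in TPM (17.6% of all genes were higher and 17.3% lower), while Gimap3 was lower. After T cell gene scaling Gimap7 and Gimap9 were higher in liver and Gimap3, Gimap6 and Gimap8 lower (10.9% and 26.7% of all genes).

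Shares within the family do not depend on what else a library held, as long as other cells bring no Gimap transcripts. Gimap3 took 31.5% ± 0.138 (SD, n = 3) of the 8 genes' summed TPM in lymph node and 21.1% ± 0.680 in liver. Gimap6 took 14.1% ± 0.235 in lymph node, 15.2% ± 0.555 in blood, 22.7% ± 2.04 in liver and 25.2% ± 1.60 in lung. Gimap4 took 28.6% ± 1.03 in blood, above every library of the other sites, whose means ran from 19.7% to 22.8%. The cytotoxic and NK markers were also highest in blood, and their part in these shares was not tested. Gimap3 took the highest share in every library of spleen, lymph node and bone marrow, and Gimap4 in every blood library. In liver Gimap4 (22.8% ± 1.35) and Gimap6 had close means, and in lung Gimap6 and Gimap3 (24.7% ± 0.792) did, with an order that changed between libraries.

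**Figure D5:**
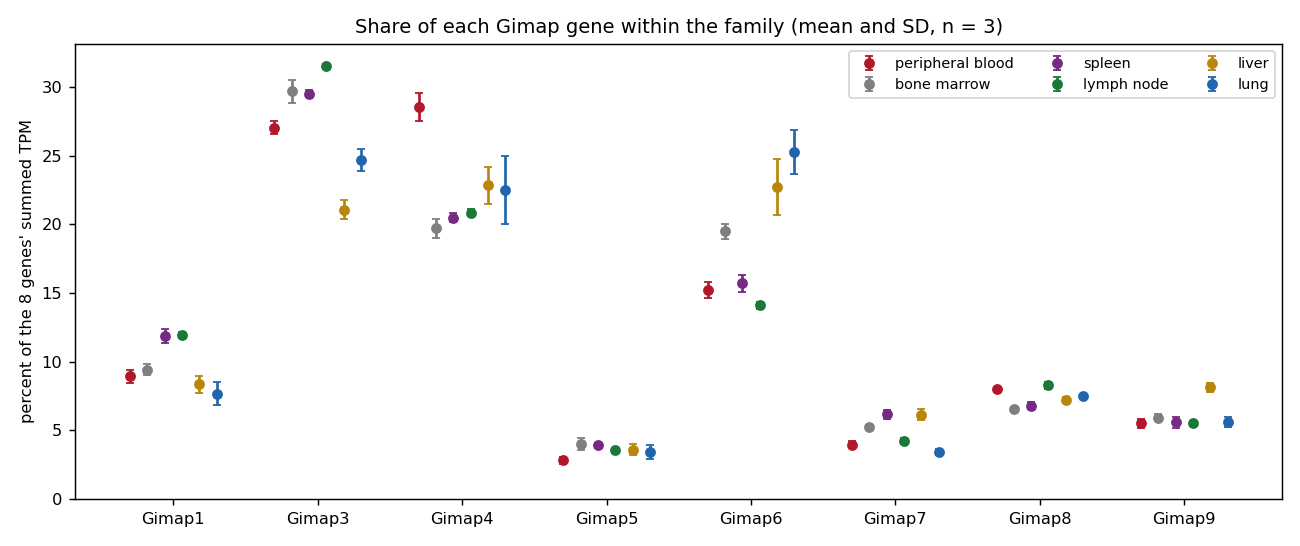
Percent of the 8 Gimap genes' summed TPM taken by each gene at each site, mean and SD of 3 libraries. Gimap4 in blood (28.6%) stands above its other sites, and Gimap6 in lung (25.2%) and liver (22.7%) above its share in lymph node (14.1%).

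The members did not all vary together over the 18 libraries, which share sites and composition. On the log2(TPM + 1) scale Gimap1 and Gimap3 had Pearson r = 0.86 and Gimap6 and Gimap9 r = 0.80, while Gimap3 and Gimap4 had r = -0.24 in TPM and 0.60 after T cell gene scaling. Outside the family, the genes most like the mean of the 8 members, of 10272 candidates, were Bcl2a1b and Myl12a (both r = 0.945), Rilpl2 (0.922), Rgs16 (0.916) and Penk (0.914). Bcl2a1b, an anti-apoptotic relative of Bcl2, held 43.4 TPM in blood and 242 TPM in liver. The gene most like Gimap6 was Nfkbia, the inhibitor of NF-kappa B (r = 0.966), and that most like Gimap8 was Cd83 (r = 0.977).

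Genes tied to GIMAP proteins or to lymphocyte survival were mixed in blood in TPM. Of 16 listed genes, 7 were higher and 2 lower in blood than in spleen (20.1% and 15.3% of all genes), and 6 higher and 4 lower than in liver (23.3% and 16.1%). After T cell gene scaling 15 and 16 were higher (54.3% and 61.1% of all genes) and 0 lower. Against lymph node 6 were higher and 4 lower (16.4% and 21%), then 15 and 0 after scaling (56.8% and 1.93%). Against lung 7 were higher and 6 lower (26.4% and 17.3%), then 12 and 2 (51.7% and 7.43%). Against bone marrow 6 were higher and 2 lower (13% and 18.8%), then 11 and 0 (31.4% and 7.82%). Mcl1, an anti-apoptotic protein of the Bcl2 family, held 796 TPM in blood and 247 to 403 TPM at the other sites, and was higher in blood by 0.98 to 1.68 with adjusted p of at most 2.68e-11 in each comparison, and by 1.64 to 2.65 after T cell gene scaling. Bcl2, the founding member of that family, held 63.4 TPM in blood, 79.2 TPM in lymph node and 21.0 TPM in bone marrow. Bcl2l11, its pro-apoptotic relative Bim, held 168 TPM in lung and 16.6 to 31.9 TPM elsewhere. Gabarapl2, the partner of Gimap6, was lowest in lung at 60.1 TPM and highest in liver at 135 TPM. Gimap6 was high at both sites, and a relation between the 2 genes was not tested.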

How the data were processed

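The authors deposited TPM per gene for each of the 18 libraries, per the file headers. Tools named in the submitters' processing notes are STAR and RSEM, with build mm10; versions, annotation and strand setting are not given in the sources used here. TPM summed to between 999999 and 1000001 per library, so read depth is unknown, the number of libraries limits precision, and no count test was run. The 16694 genes whose mean reached 1 TPM at any site were fitted on log2(TPM + 1) with limma 3.58.1 (R 4.3.3), all libraries in 1 fit, eBayes with trend and robust, Benjamini-Hochberg adjustment per contrast, and calls at adjusted p under 0.05. The fit was tested on simulated data, where it missed more of the small than of the large changes, so a difference that did not pass the test is not shown to be absent. Of the gene IDs, 55141 matched a GENCODE M21 symbol. No 2 libraries held identical values. Named genes were all 8 members, listed genes with the largest differences, 5 coding neighbours per side, genes inside the cluster, and by Pearson r the 5 genes most like the family and 1 most like each member; of these last, 2 are printed, picked after their values were seen. The members and lists were chosen with earlier results of these data known. Deviations from group means correlated at -0.034 to 0.03 between libraries of the same replicate number and at -0.035 to 0.04 between those of different numbers. Same numbers thus showed no closer likeness, which cannot exclude that they share an animal or a day.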

Additional observations from a re-analysis of the deposited data

How the results depend on the processing

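Pseudocount 0.1, no filter on low values and removal of abundant RNA classes (mitochondrial, ribosomal protein, haemoglobin, immunoglobulin and receptor segment genes) left every count of members called in blood, over the 10 other pairs and by the F test within 1.5 times its value, and all 8 members passed the F test in each alternative run. Counts depended most on scaling. T cell gene scaling gave 5, 8, 4, 5 and 2 members higher in blood than in spleen, lymph node, liver, lung and bone marrow, and 1, 0, 3, 1 and 2 lower. Median-ratio scaling gave 1 higher and 3 lower against lymph node and 2 higher against bone marrow. Against lymph node, library weights and a fit of only the groups compared each gave 1 higher, and leaving out single libraries gave 0 to 1, with 1 only without lung library 3. Against bone marrow, eBayes without trend and robust gave 0 higher, and leaving out single libraries gave 0 to 1, with 0 without bone marrow library 2 or 3 or blood library 1 or 3. The cause was not tested. With the replicate number as a block, 7 members were lower in blood than in spleen, and no count of calls moved by over 1.5 times. The labels do not say whether the numbers pair the libraries.

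Scaling to the 20 T cell genes turned the sign of 48 of the 120 member-and-pair differences. Peripheral blood minus lymph node became 0.41 for Gimap1, 0.61 for Gimap3, 0.49 for Gimap5, 0.94 for Gimap6, 0.73 for Gimap7, 0.78 for Gimap8 and 0.82 for Gimap9. Peripheral blood minus liver became 0.39 for Gimap1, 0.65 for Gimap3, 0.61 for Gimap4 and 0.44 for Gimap8. Peripheral blood minus lung became 0.35 for Gimap1, 0.26 for Gimap3, 0.48 for Gimap4, 0.34 for Gimap7, 0.23 for Gimap8 and 0.098 for Gimap9. Peripheral blood minus bone marrow became 0.12 for Gimap1, 0.064 for Gimap3, 0.49 for Gimap8 and 0.092 for Gimap9. Lymph node minus liver became -0.026 for Gimap1. Lymph node minus lung became -0.059 for Gimap1, -0.35 for Gimap3 and -0.39 for Gimap7. Lymph node minus bone marrow became -0.29 for Gimap1, -0.55 for Gimap3, -0.56 for Gimap4 and -0.29 for Gimap8. Liver minus lung became -0.033 for Gimap1, -0.13 for Gimap4, -0.083 for Gimap5 and -0.21 for Gimap8. Liver minus bone marrow became -0.27 for Gimap1 and -0.24 for Gimap5. Peripheral blood minus spleen became 0.26 for Gimap3, 0.86 for Gimap4, 0.34 for Gimap6, 0.61 for Gimap8 and 0.36 for Gimap9. Spleen minus bone marrow became -0.19 for Gimap3, -0.13 for Gimap4, -0.21 for Gimap5, -0.13 for Gimap8 and -0.27 for Gimap9. Spleen minus lung became -0.053 for Gimap5. Spleen minus lymph node became 0.17 for Gimap8. Lung minus bone marrow became -0.0066 for Gimap9. Median-ratio scaling turned 12. Lymph node minus liver became -0.034 for Gimap1. Lung minus bone marrow became 0.13 for Gimap1, 0.16 for Gimap3 and 0.20 for Gimap5. Lymph node minus lung became -0.14 for Gimap3 and -0.18 for Gimap7. Peripheral blood minus spleen became 0.014 for Gimap4. Spleen minus liver became -0.016 for Gimap5. Peripheral blood minus lymph node became 0.059 for Gimap6. Spleen minus bone marrow became 0.034 for Gimap6. Peripheral blood minus bone marrow became 0.17 for Gimap8. Spleen minus lymph node became 0.13 for Gimap8. Removing the abundant RNA classes turned 8. Lung minus bone marrow became 0.036 for Gimap1, 0.071 for Gimap3 and 0.11 for Gimap5. Spleen minus bone marrow became 0.11 for Gimap6. Peripheral blood minus bone marrow became 0.029 for Gimap8. Spleen minus lymph node became 0.029 for Gimap8. Spleen minus lung became 0.069 for Gimap9. Lymph node minus bone marrow became 0.011 for Gimap9. Scaling to the summed TPM of the 8 genes, an alternative chosen after seeing the data and given with no test, turned 14 called differences. Peripheral blood minus liver became 0.098 for Gimap1, 0.36 for Gimap3, 0.32 for Gimap4 and 0.15 for Gimap8. Peripheral blood minus lung became 0.22 for Gimap1, 0.13 for Gimap3, 0.21 for Gimap7 and 0.095 for Gimap8. Spleen minus lymph node became -0.010 for Gimap1 and -0.095 for Gimap3. Spleen minus bone marrow became -0.0073 for Gimap3. Peripheral blood minus lymph node became 0.11 for Gimap6. Peripheral blood minus spleen became 0.23 for Gimap8. Lymph node minus liver became 0.20 for Gimap8. Leaving out single libraries turned the sign of 4 differences, none of them called: Gimap5 ranged from -0.081 to 0.086 for spleen minus liver and from -0.10 to 0.077 for lung minus bone marrow, Gimap6 from -0.13 to 0.024 for liver minus lung, and Gimap9 from -0.076 to 0.051 for spleen minus lung. In all, the 120 differences lost or gained a call without a change of sign in 13 and 12 cases under T cell gene scaling. Read depth is unknown, so low values have no counting interval, but the lowest member value was 71.0 TPM.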

Other observations

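Another set of immune GTPases, 15 interferon-inducible genes of the Gbp, Irg and Mx families, is given for the pair of sites with the most calls in TPM among 15 pairs, picked after the values were seen. Of the 15 genes, 13 were higher and 1 lower in liver than in lung (17.6% and 17.3% of all genes), and 9 and 2 after T cell gene scaling (10.9% and 26.7%). A difference from the Gimap members was not tested.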
